A study of Rattus norvegicus with 6 samples.

Results

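The genes described here drive the cell division cycle, from G1 entry through DNA synthesis to mitosis, and were followed in the rat left atrium after rapid atrial pacing. Of 43 genes listed by their textbook role, 39 had a probe set that carried their symbol alone, out of 11237 genes measured in all. The 39 comprised 7 regulators of G1 and of entry into S phase, 9 genes of DNA replication and nucleotide supply, and 23 genes of mitosis. Mcm3, Mcm4, Mki67 and Cenpf had no such probe set and have no value here. Each gene was given by its brightest probe set, which had to exceed a log2 signal of 5 on at least 1 array. All 39 genes passed this filter, and each of them did so on the control arrays alone.

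The atria came from male adult Sprague-Dawley rats with an implanted atrial electrode, and 6 arrays were analysed. In the RAP group the atrium was paced at a cycle length of 70 ms for 48 hours, and in the control group (Con) at 140 ms for the same time, so the controls were paced animals as well. Rats were handled in pairs of 1 RAP and 1 Con animal, here pairs 1 to 3, and all of them received the beta blocker atenolol. Ventricular rate was similar in both groups by design, and the samples were whole left atrial tissue, not purified cells.

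A cell that enters the cycle first raises D and E cyclins, which activate Cdk4 and Cdk2 and release E2F factors. E2F then switches on the replication genes, whereas cyclin B, Cdk1, the Aurora and Polo-like kinases and the mitotic kinesins accumulate later, when Foxm1 and the MuvB complexes act on their promoters. In the adult heart most cardiomyocytes do not divide, and cycling cells are found mainly among the non-myocytes. The promoters of late genes are known for the CHR element, often near CCAAT boxes, and those of replication genes for E2F sites.

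The promoters of 5 members are shown because their 3 mitotic and 2 S-phase genes show the CHR and E2F letters in groups of genes that parted in an atrium described below. Each runs 5′ to 3′ on the strand of the gene from 250 bases before to 50 bases after its start, from RefSeq on the GRCr8 build. Capitals mark the letters of the CHR (TTTGAA), the CCAAT box (CCAAT) and the E2F site on either strand, the last searched as TTCCCGC, in a variant form as TTGGCGC, and in another as TTCGCGC, and E2F letters on opposite strands can overlap. Plk1 lies at chr1:186147408-186147707 (plus strand), Cdk1 at chr20:19265043-19265342 (plus), Top2a at chr10:84473044-84473343 (minus), Mcm6 at chr13:42404303-42404602 (minus) and Mcm5 at chr19:13488563-13488862 (plus).
Plk1: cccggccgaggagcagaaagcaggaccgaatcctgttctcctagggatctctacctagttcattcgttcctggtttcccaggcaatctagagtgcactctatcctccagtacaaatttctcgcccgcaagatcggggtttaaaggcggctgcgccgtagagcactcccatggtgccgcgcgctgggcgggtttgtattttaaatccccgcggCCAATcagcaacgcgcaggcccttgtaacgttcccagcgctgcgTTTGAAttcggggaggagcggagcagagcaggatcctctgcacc
Cdk1: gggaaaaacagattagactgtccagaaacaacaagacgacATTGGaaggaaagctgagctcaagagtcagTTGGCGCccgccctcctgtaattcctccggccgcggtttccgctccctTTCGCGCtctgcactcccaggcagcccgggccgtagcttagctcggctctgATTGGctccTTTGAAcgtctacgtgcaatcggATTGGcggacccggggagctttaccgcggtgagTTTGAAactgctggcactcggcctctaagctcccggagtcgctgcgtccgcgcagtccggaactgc
Top2a: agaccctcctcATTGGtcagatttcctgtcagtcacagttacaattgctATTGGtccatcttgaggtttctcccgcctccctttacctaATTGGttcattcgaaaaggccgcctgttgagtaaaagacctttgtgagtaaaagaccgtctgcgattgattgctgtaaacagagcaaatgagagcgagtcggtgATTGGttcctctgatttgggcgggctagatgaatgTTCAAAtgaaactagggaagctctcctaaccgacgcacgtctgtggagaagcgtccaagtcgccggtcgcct
Mcm6: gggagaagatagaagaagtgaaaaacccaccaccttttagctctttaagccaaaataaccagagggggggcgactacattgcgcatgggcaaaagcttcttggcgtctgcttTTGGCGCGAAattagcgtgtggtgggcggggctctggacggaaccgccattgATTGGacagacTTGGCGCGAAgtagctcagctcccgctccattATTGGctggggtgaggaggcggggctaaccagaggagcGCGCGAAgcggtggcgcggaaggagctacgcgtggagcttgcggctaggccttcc
Mcm5: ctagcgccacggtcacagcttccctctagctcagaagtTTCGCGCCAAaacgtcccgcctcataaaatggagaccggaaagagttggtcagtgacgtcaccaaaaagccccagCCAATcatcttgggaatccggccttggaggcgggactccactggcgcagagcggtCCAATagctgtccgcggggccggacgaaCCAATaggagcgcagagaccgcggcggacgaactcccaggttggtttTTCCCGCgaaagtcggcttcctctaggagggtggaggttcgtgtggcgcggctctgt

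A promoter was found for 32 of the 43 listed genes. Among the 21 mitotic genes with a promoter, 15 (71.4%) held the CHR letters, as did 18.1% of all 27457 promoters of the same length. CCAAT was found in 17 of these 21 (81.0%) and in 6 of 8 S-phase promoters (75.0%), beside 37.7% of all promoters. Both stood together in 13 of the 21 (61.9%), against 7.25% of all promoters and none of 8 S-phase promoters. E2F letters were found in 7 of 8 S-phase promoters (87.5%, all but Pcna) and in 3 of 21 mitotic promoters (14.3%), beside 7.97% of all promoters. Of the 18 CHR matches in mitotic promoters, 17 began no further than 120 bases before the start. In Plk1 the match began 6 bases after the start and in Top2a 22 bases before it. These counts are descriptions of letters, and binding was not measured. Among mitotic genes outside the members, 33 of 52 promoters (63.5%) held the CHR, and among other replication genes 25 of 41 (61.0%) held E2F letters.

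**Figure D1:**
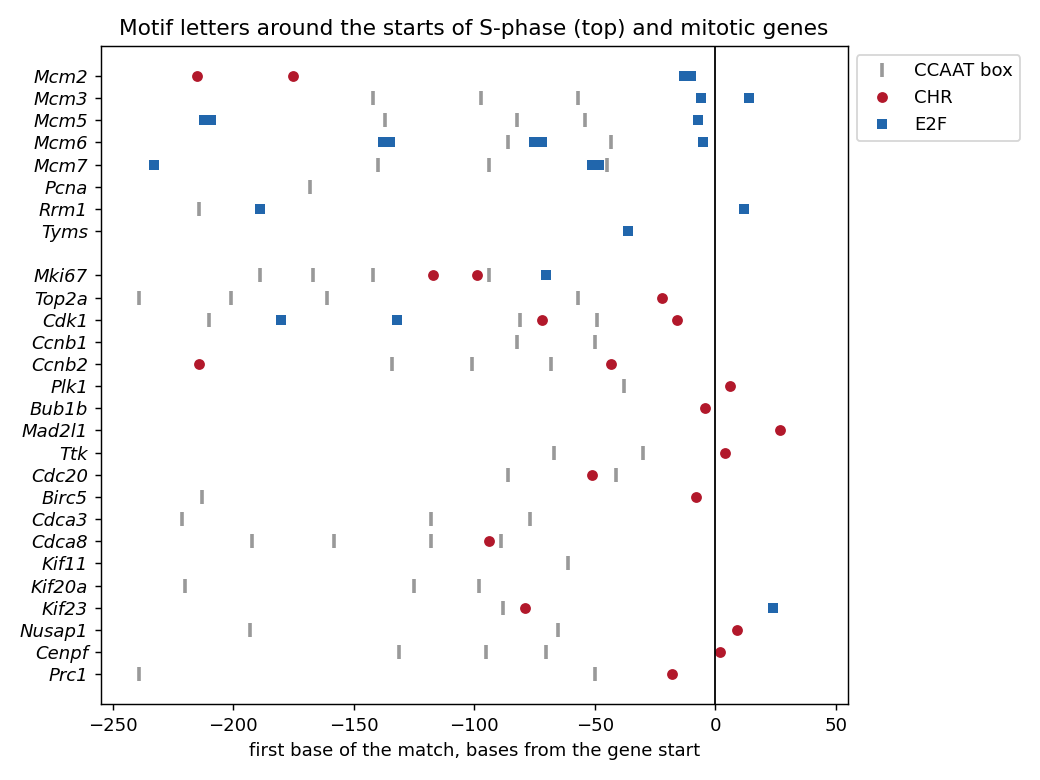
Positions of CHR, CCAAT and E2F letters in the promoters of S-phase genes (top) and mitotic genes, in bases from the gene start at 0, with each mark at the first base of a match. CHR marks lie mostly in the mitotic rows and E2F marks mostly in the S-phase rows, and the mitotic genes Aurka and Bub1 have no row because none of the letters was found in their window; Mcm3, Mki67 and Cenpf have a promoter but no measured signal.

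None of the 39 genes rose or fell with RAP. By limma with the pair as a block, 0 members passed an unadjusted p under 0.05 with a fold change above 1.3, beside 2.94% of all genes that rose and 3.45% that fell. At an unadjusted p under 0.05 alone there were 0 members and 774 of all 11237 genes, the methods' paired t-test also called 0 members, and no gene of the array reached an adjusted p under 0.05. The median change over the 39 members was -0.05 on the log2 scale, beside -0.01 over all genes. The smallest p among the members belonged to Ccnd2 (0.0624) and then to Rrm1 (0.0858), each with an adjusted p of 0.699.

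The absence of a call did not go with uniform levels. The 3 RAP atria differed widely from each other while the 3 controls were close together. For the mitotic genes the median SD was 1.20 log2 units among RAP atria and 0.12 among controls, whereas over all genes it was 0.19 and 0.16. The SD was larger in RAP than in Con for 38 of the 39 members (all but Ccnd2), beside 54.3% of all genes. The 95% interval of the change accordingly reached a median of 1.22 log2 units to each side for a mitotic gene, and 0.42 for all genes, so that for a typical mitotic gene changes of 2-fold in either direction lay within it.

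The direction of this spread was shared. In 33 of the 39 members the highest of the 6 arrays was RAP 1, beside 12.4% of all genes, and in 34 the lowest was RAP 2, beside 25.2%. All 3 control atria lay between RAP 2 below and RAP 1 above in 34 members, beside 4.01% of all genes. The members share these libraries and many are regulated together, so they are not independent counts of this order. The control animals of the same pairs did not show it, with a mean deviation of the mitotic genes of 0.02 in Con 1 and 0.12 in Con 2, against 1.16 in RAP 1 and -1.11 in RAP 2.

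**Figure D2:**
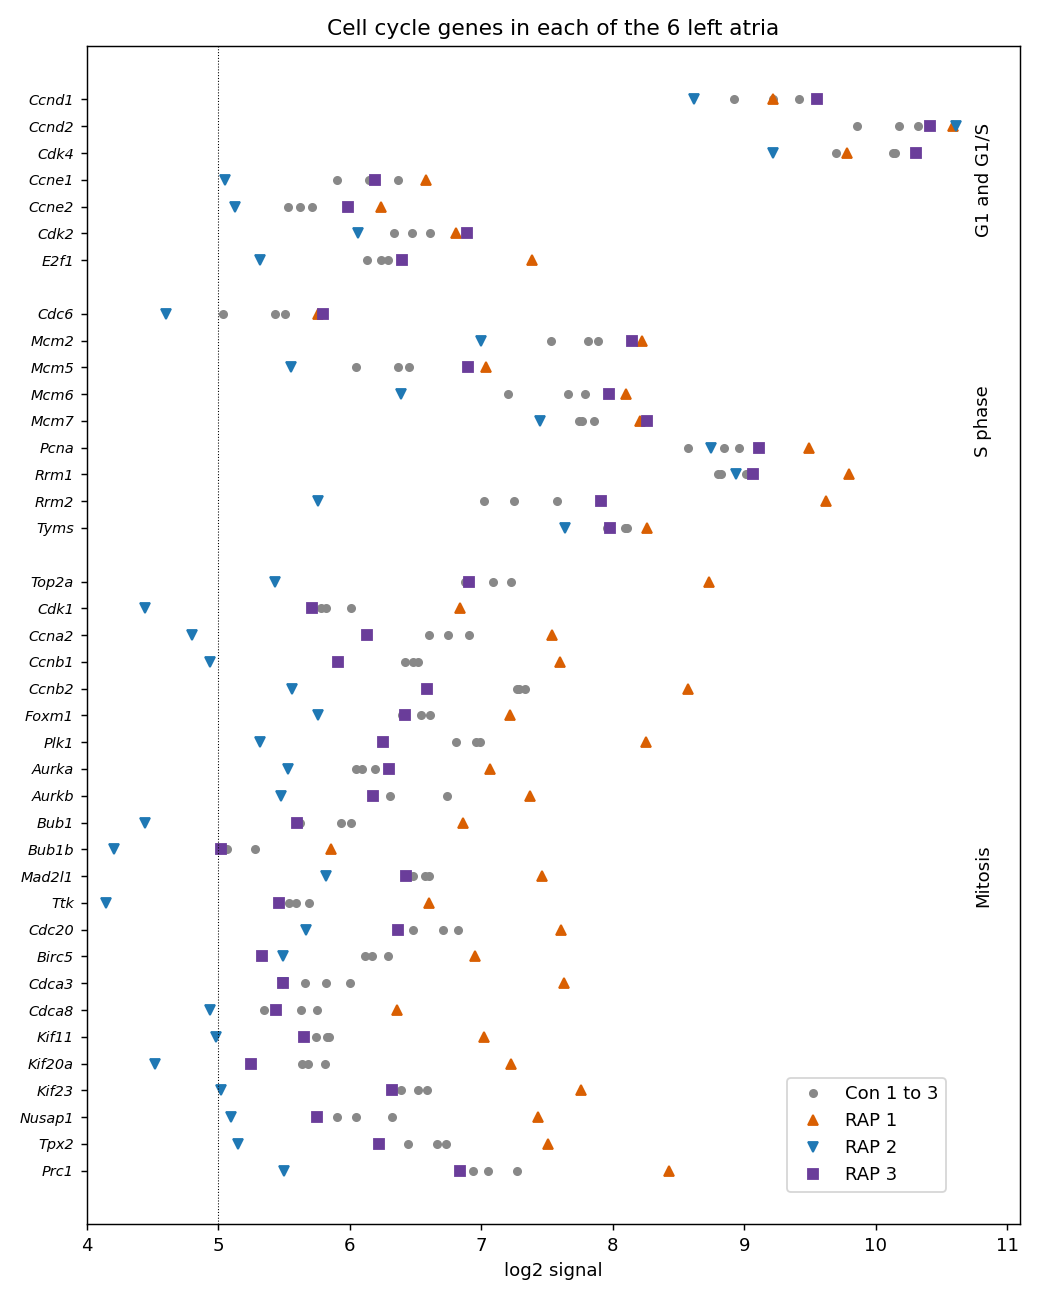
Log2 signal of the 39 measured genes in each left atrium, with grey circles for the 3 controls and coloured marks for RAP 1, RAP 2 and RAP 3; the dotted line is the filter at 5. All 23 mitotic genes have the controls between RAP 2 and RAP 1, and RAP 3 lies at or below the controls in most mitotic rows and above them in most S-phase rows.

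In G1, the D-type cyclins and their kinase did not follow the order of most members, in that RAP 1 was the highest atrium for none of the 3. Ccnd2, which activates Cdk4 and Cdk6, had log2 signals of 9.86, 10.18 and 10.32 in Con 1 to 3 and 10.59, 10.61 and 10.41 in RAP 1 to 3. It was the only member whose groups did not overlap, with a change of 0.42 (SE 0.17, 95% interval -0.03 to 0.87). The share of all genes without overlap was not counted, so the separation cannot be weighed. Ccnd1, its paralog, measured 8.92, 9.22 and 9.42 in controls and 9.22, 8.62 and 9.55 after RAP. Cdk4 measured 10.15, 10.13 and 9.70, and then 9.78, 9.22 and 10.31. In both, RAP 2 was lowest and RAP 3 highest, and the groups overlapped.

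Of the regulators that act at the entry into S phase, E2f1, the transcription factor released by the retinoblastoma protein, had the widest range, with 6.13, 6.29 and 6.24 in controls and 7.39, 5.32 and 6.40 after RAP. RAP 1 was 2.25-fold above the control mean and RAP 2 was 1.86-fold below it. Ccne1, a cyclin of Cdk2, measured 6.15, 6.37 and 5.90, and then 6.58, 5.05 and 6.19. For its paralog Ccne2 the values were 5.62, 5.53 and 5.71 in controls and 6.24, 5.13 and 5.99 after RAP. Cdk2 itself was at 6.61, 6.47 and 6.34, and at 6.81, 6.06 and 6.89. RAP 2 was the lowest atrium for all of these, and RAP 1 the highest for all but Cdk2.

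Among the S-phase genes, Rrm2 had the widest range of all 39 members. It encodes the small subunit of ribonucleotide reductase, which makes the deoxynucleotides for DNA synthesis. Its signal was 7.25, 7.58 and 7.02 in controls, and 9.62, 5.76 and 7.91 in RAP 1 to 3, which placed RAP 1 5.04-fold above the control mean, RAP 2 2.89-fold below and RAP 3 1.54-fold above. A dimmer probe set of Rrm2 gave 6.75, 7.20 and 6.62, and 9.19, 5.30 and 7.40, in the same order. The large subunit, Rrm1, had 9.01, 8.82 and 8.80 in controls and 9.80, 8.94 and 9.07 after RAP, with only RAP 1 clearly apart.

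The helicase subunits that unwind DNA at the fork had a common order. Mcm6 measured 7.66, 7.79 and 7.20 in controls and 8.10, 6.39 and 7.97 after RAP. For Mcm5 the signals were 6.37, 6.45 and 6.05, and then 7.04, 5.55 and 6.90. In these 2 genes, as in Mcm2 and Mcm7, RAP 1 and RAP 3 lay above every control and RAP 2 below every control. Mcm2 was 1.68-fold below its control mean in RAP 2 and 1.40-fold above it in RAP 1, and Mcm7 spanned 7.45 in RAP 2 to 8.26 in RAP 3. Cdc6, which loads the helicase at origins, had 5.43, 5.51 and 5.04, and then 5.76, 4.60 and 5.80. Its RAP 2 value was under the filter level, so the distance there may be compressed.

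The remaining S-phase genes departed from the order of the helicase subunits. Pcna, the sliding clamp of the polymerases, measured 8.57, 8.85 and 8.96 in controls and 9.49, 8.75 and 9.11 after RAP, and RAP 2 lay inside the control range. Tyms, which makes thymidylate, measured 8.11, 7.96 and 8.09, and then 8.26, 7.64 and 7.98. It was the only S-phase gene for which RAP 3 did not exceed all controls. Over the 9 S-phase genes the mean distance from the control mean was 0.75 in RAP 1 (range over genes 0.21 to 2.33), -0.63 in RAP 2 (-1.53 to 0.06) and 0.38 in RAP 3 (-0.07 to 0.63).

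In RAP 1 and RAP 2 the mitotic genes lay further from the controls than the S-phase genes on average, and in RAP 3 they did not. All 23 were highest in RAP 1, and 21 were lowest in RAP 2, the exceptions being Birc5 and Cdca3, where RAP 3 was lowest. Their mean distance from the control mean was 1.10 in RAP 1 (2.14-fold above), -1.17 in RAP 2 (2.25-fold below) and -0.31 in RAP 3 (1.24-fold below). Over all genes these distances were -0.02, -0.06 and 0.00. The distance in RAP 1 exceeded the range of the gene's own controls in all 23, and that in RAP 2 in 22. That control range had a median of 0.23 over these genes, and the share over all genes was not counted. In whole tissue, fewer cells of a type and less RNA per cell cannot be told apart.

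Cdk1 and its cyclins start mitosis. Cdk1 measured 5.82, 6.01 and 5.78 in Con 1 to 3 and 6.84, 4.44 and 5.71 in RAP 1 to 3. For Ccnb1 the signals were 6.42, 6.52 and 6.48, and then 7.60, 4.94 and 5.91. All 3 controls of either gene lay within 0.23 log2 units of each other, while RAP 1 and RAP 2 were 2.40 apart for Cdk1 and 2.66 for Ccnb1. Ccnb2 had 7.27, 7.33 and 7.29 in controls and 8.57, 5.56 and 6.59 after RAP, and its other probe set gave 7.26, 7.36 and 7.25, and 8.58, 5.56 and 6.60. Ccna2, the cyclin of late S phase and G2, measured 6.60, 6.91 and 6.75, and then 7.54, 4.80 and 6.13. RAP 2 was 3.87-fold below the control mean for Ccna2, the largest such distance among the members, and RAP 3 was below every control for all 4 genes.

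Foxm1, the transcription factor of this gene programme, was among the mitotic genes with the smallest distance between RAP 1 and RAP 2 (1.46), with 6.54, 6.61 and 6.40 in controls and 7.22, 5.76 and 6.42 after RAP. Plk1, the Polo-like kinase needed for entry into and exit from mitosis, measured 6.96, 6.99 and 6.81, and then 8.25, 5.32 and 6.25. Aurkb, the kinase of the chromosomal passenger complex, measured 6.31, 6.74 and 6.18, and then 7.37, 5.48 and 6.18. Aurka, the kinase of the spindle poles, had 6.19, 6.09 and 6.05 in controls and 7.07, 5.53 and 6.30 after RAP. It was the only mitotic gene for which RAP 3 lay above all controls. Birc5 and Cdca8, partners of Aurkb in the passenger complex, differed in RAP 3, which was 1.81-fold below the control mean for Birc5 and 1.10-fold below for Cdca8.

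Top2a untangles sister chromatids and had the widest range among the mitotic genes, with 6.88, 7.23 and 7.09 in controls and 8.73, 5.43 and 6.91 after RAP. RAP 1 was 3.17-fold above and RAP 2 3.12-fold below the control mean, so that the change over the pairs was -0.05 (SE 0.70, adjusted p = 0.985). Its pairs differed by 1.85, -1.80 and -0.19. Distances of opposite sign thus cancelled in the mean of the group.

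The spindle checkpoint genes, which hold cells until chromosomes are attached, kept the same order of atria. Bub1 measured 6.01, 5.93 and 5.62 in controls and 6.86, 4.44 and 5.60 after RAP. For Ttk the signals were 5.59, 5.69 and 5.54, and then 6.60, 4.15 and 5.46. Bub1b and Mad2l1 had smaller distances, with RAP 1 1.67-fold and 1.88-fold above and RAP 2 1.88-fold and 1.65-fold below their control means. Cdc20, the activator of the anaphase-promoting complex that the checkpoint restrains, had 6.48, 6.71 and 6.82 in controls and 7.61, 5.67 and 6.37 after RAP.

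Genes of the spindle and of cytokinesis followed. Prc1, which bundles the central spindle, measured 6.94, 7.05 and 7.27 in controls and 8.43, 5.50 and 6.84 after RAP. Kif20a and Kif23, kinesins of the central spindle, had RAP 1 at 2.87-fold and 2.40-fold above and RAP 2 at 2.28-fold and 2.79-fold below their control means. For Kif11, the kinesin that separates the poles, these distances were 2.32-fold and 1.78-fold, for the spindle protein Nusap1 2.54-fold and 1.98-fold, and for the spindle assembly factor Tpx2 1.87-fold and 2.75-fold. Cdca3, a trigger of mitotic entry, stood 3.50-fold above the control mean in RAP 1, the largest such distance among mitotic genes, but only 1.26-fold below it in RAP 2. Under the filter level in RAP 2 were 9 mitotic genes, for which the distance to the controls may be understated.

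**Figure D3:**
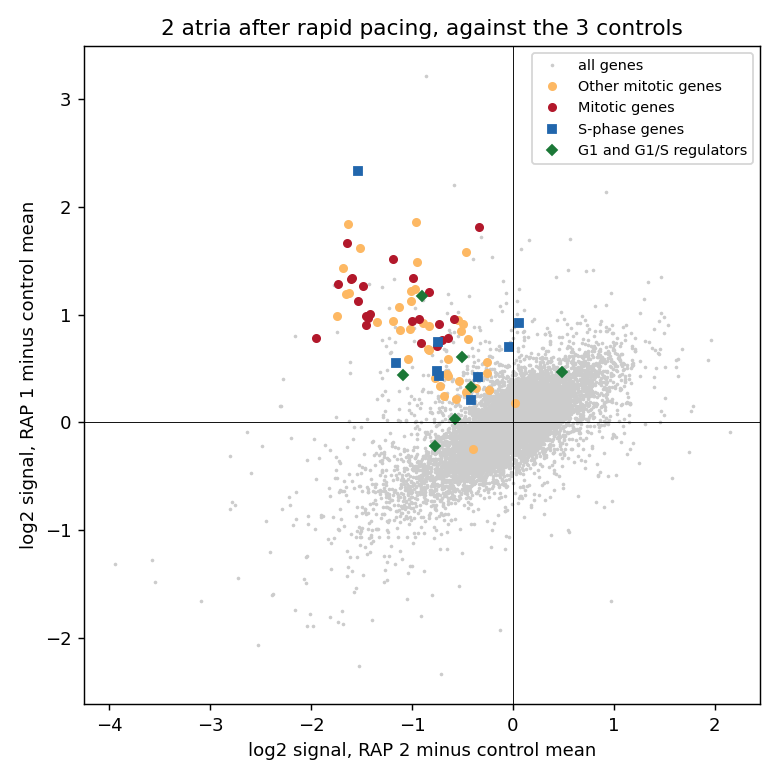
Distance from the control mean (log2 signal) in RAP 2 on the x axis and RAP 1 on the y axis for all 11237 genes in grey and for the cell cycle lists in colour; both axes use the same control mean, so the slope of the grey cloud has no meaning of its own. Mitotic genes occupy the upper left quadrant, above the control mean in RAP 1 and below it in RAP 2.

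S-phase and mitotic genes parted in RAP 3. RAP 3 lay above all 3 controls for 8 of 9 S-phase genes, 6 of 7 G1 regulators and 1 of 23 mitotic genes, beside 28.1% of all genes. It lay below all 3 controls for 18 of 23 mitotic genes and for 0 of the 16 others, beside 27.6%. The mean deviation of the S-phase genes minus that of the mitotic genes was -0.07, -0.11 and -0.27 in the controls. It was -0.49 in RAP 1, 0.39 in RAP 2 and 0.54 in RAP 3. By pair the difference RAP minus Con was -0.43, 0.50 and 0.81, a mean of 0.30 with an SD of 0.64 (n = 3), so it was smaller than the spread between pairs and its sign was not shared. In RAP 1 and RAP 2 both groups of genes deviated to the same side, the mitotic genes further.

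Other mitotic and S-phase genes, outside the members, gave the same order of atria, with all 3 controls between RAP 2 below and RAP 1 above for 38 of 41 and 22 of 39. The mean deviation of 41 other mitotic genes from their 6-array means was 0.02, 0.06 and 0.02 in controls and 0.85, -0.81 and -0.14 after RAP. For 39 other S-phase genes it was -0.07, -0.02 and -0.09, and then 0.33, -0.31 and 0.16. The 11 other G1 regulators did not show it, with a mean deviation of 0.02, 0.11 and 0.02 in controls and 0.01, -0.20 and 0.03 after RAP, and 1 gene with the controls between RAP 2 and RAP 1. For the other lists the S-phase minus mitotic difference was -0.09, -0.08 and -0.11 in controls and -0.52, 0.50 and 0.30 in RAP 1 to 3. RAP 3 lay below all controls for 23 of 41 other mitotic genes (56.1%, against 78.3% of the mitotic members) and above them for 7. It lay above all controls for 24 of 39 other S-phase genes (61.5%, against 88.9% of the S-phase members) and below them for 3.

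**Figure D4:**
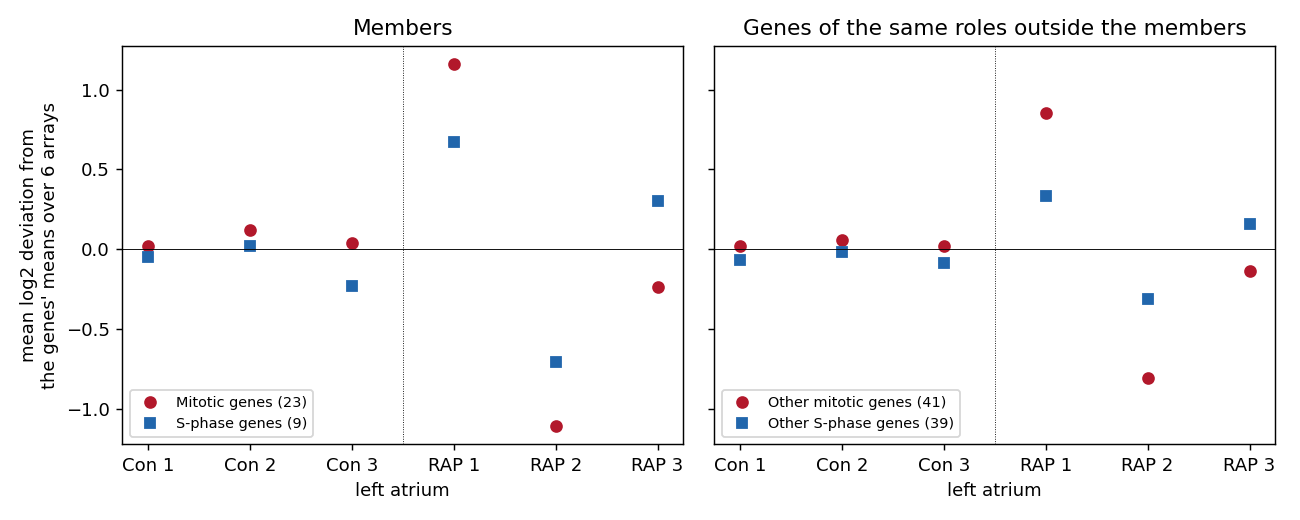
Mean log2 deviation of S-phase genes (blue squares) and mitotic genes (red circles) from each gene's mean over the 6 arrays, in each left atrium, for the members (left) and for other genes of the same roles (right). In RAP 3 the S-phase mean is above 0 (0.30 and 0.16) and the mitotic mean below it (-0.24 and -0.14).

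Unlike the members, a few other cell cycle genes passed the thresholds, and all of these rose, with an adjusted p of 0.699 by limma. Pold2, a subunit of the replicative DNA polymerase delta, had 8.14, 8.17 and 8.61 in controls and 8.91 or more in every RAP atrium, a change of 0.65 (SE 0.16). Rpa1, which binds single-stranded DNA, rose by 0.40 (SE 0.13). The groups overlapped for neither gene, again without a share over all genes to set beside it. They were 2 of the 39 other S-phase genes (5.13%), beside 2.94% of all genes. The factor p53 halts the cycle after DNA damage. The 15 p53 targets and growth arrest genes did not rise as a list, with a median change of -0.01 and 7 of them above 0. Of the 15, 2 rose (13.3%, beside the same 2.94%). These were Ccng1, by 0.54 (SE 0.17), and Rrm2b, a p53-induced subunit of ribonucleotide reductase, by 0.44 (SE 0.13). No call was made among 41 other mitotic genes, 11 other G1 regulators or 13 CDK inhibitors and pocket proteins. Among these inhibitors, Cdkn3, a phosphatase that itself peaks in mitosis, measured 7.58, 7.90 and 8.30, and then 9.20, 6.16 and 6.57, in the order of the mitotic genes. Cdkn1a, the p53-induced inhibitor p21, measured 8.12, 8.64 and 7.98, and then 7.80, 7.58 and 8.41. Cdkn3 and Cdkn1a were chosen after their values were seen.

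The tissue carried its label. Atrial cardiomyocyte markers (12 of 14) had a mean log2 signal between 11.56 (Con 2) and 12.18 (RAP 2) on all 6 arrays, with Nppa between 13.40 and 13.59. They deviated by -0.22, -0.28 and 0.02 in controls and by 0.11, 0.35 and 0.03 after RAP. This list was highest in RAP 2, where the members were lowest. All 12 of its genes had a change above 0, beside 5480 of all 11237 genes and 0 of 20 macrophage markers. Marker lists of other cell types differed between atria too, but in another order. None of the 11 marker lists had a gene mean that was highest in RAP 1 and lowest in RAP 2. So few lists would rarely show 1 given order, so this count decides nothing. Fibroblast markers (15 genes) deviated by 0.25, 0.78 and -0.40 in controls and by -0.18, -0.70 and 0.25 after RAP. Macrophage markers (20 of 21 measured) deviated by 0.15, 1.06 and -0.40, and then by -0.34, -0.64 and 0.18. Mast cell markers (9 of 11) deviated by 0.93, 0.74 and -0.80, and then by -0.06, -1.25 and 0.43. All 3 lists were lowest in RAP 2, as the members were, and so were mesothelial markers (-0.40). In RAP 1, where the members were highest, all 3 were below 0. Smooth muscle and pericyte markers (12 genes) were highest in RAP 1, with -0.35, 0.03 and 0.01 in controls and 0.16, 0.08 and 0.07 after RAP, and T, B and NK cell markers (13 of 17) were at 0.10 in RAP 1 and 0.57 in Con 2. In RAP 3, where S-phase and mitotic genes parted, adipocyte markers (11 of 12) stood at 1.19, against 0.33 or less in the other atria. Endothelial markers (15 of 16) stayed between -0.02 and 0.10 in RAP atria. By limma, 5 of 11 adipocyte markers rose (45.5%, beside 2.94% of all genes). Of 10 mesothelial markers, 4 fell (40.0%, beside 3.45%). Among cardiomyocyte markers 2 of 12 rose (16.7%), as did 2 of 12 smooth muscle and pericyte markers. No other marker list had more than 1 gene called. The part of cell composition in the spread of the members was not tested.

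Which atria entered the comparison decided what was called. Without pair 1, 9 mitotic genes fell, among them Ccnb1, Ccnb2, Plk1 and Cdc20, beside 0.943% of all genes. Without pair 2, Mcm5, Mcm6 and Rrm2 rose, beside 1.46%. Without pair 3, Ccnd2 rose, beside 9.49% of all genes, and Cdk4 fell, beside 12.7%, where 1 of 39 members is 2.56%. With all 6 arrays and no block for pair, Ccnd2 rose, beside 3.62%. In the unpaired fit without RAP 1, 9 mitotic genes fell, beside 3.90%. In that without RAP 2, Ccne2, Cdc6, Mcm2, Mcm5, Mcm7, Pcna and Rrm2 rose, beside 2.34%.

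**Figure D5:**
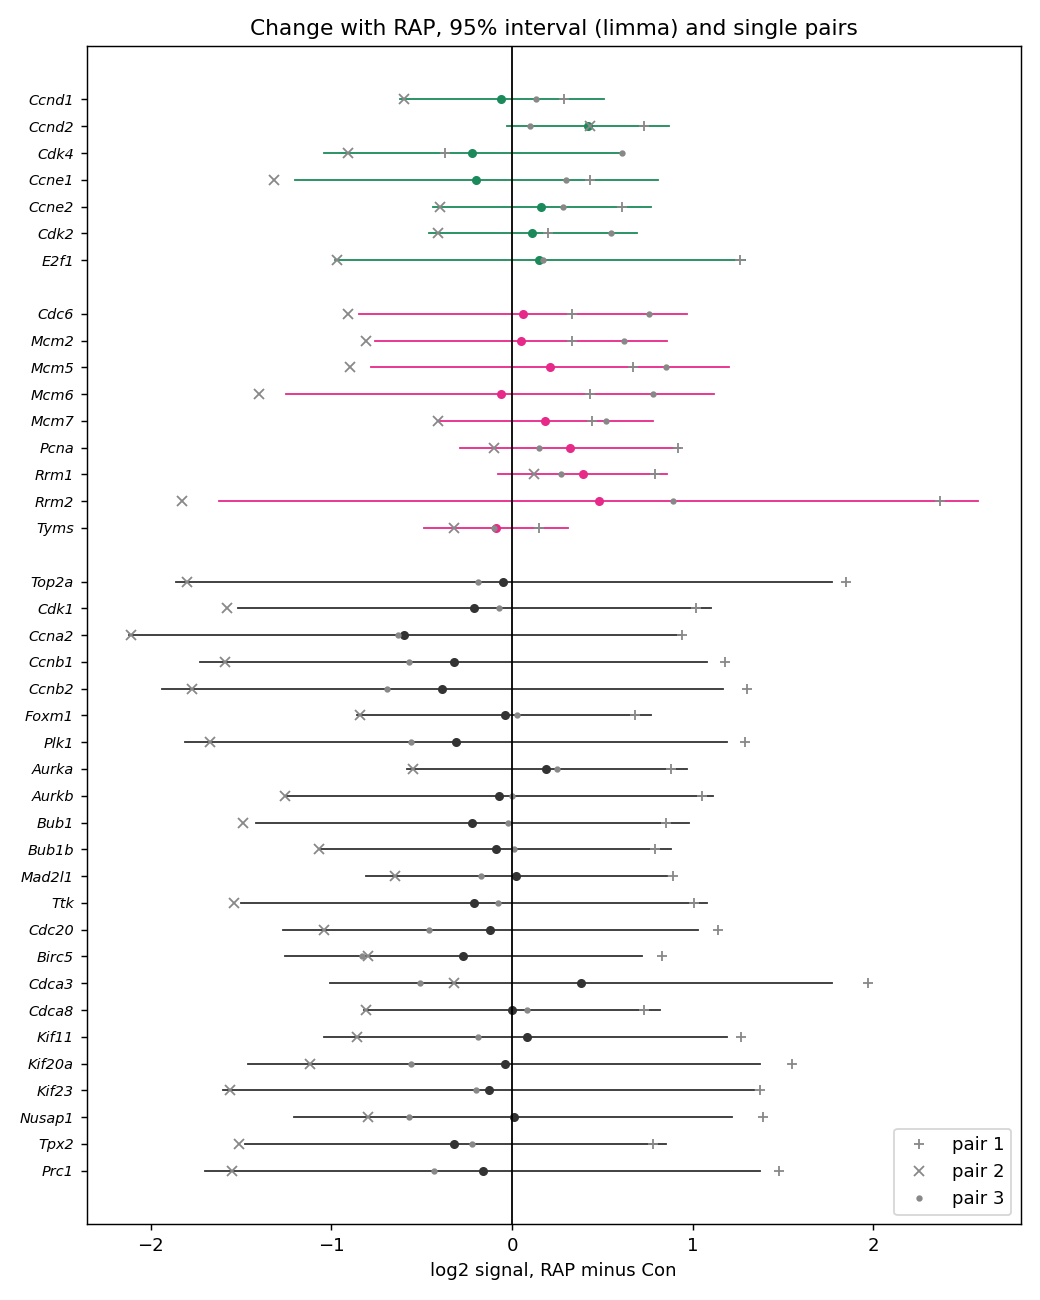
Change of each of the 39 genes with RAP (log2 signal, RAP minus Con) with its 95% interval from limma as a dot and line, in green for G1 regulators, pink for S-phase genes and dark grey for mitotic genes, and the single pairs as light grey marks. Every interval crosses 0, and pair 1 lies to the right and pair 2 to the left of 0 for all 23 mitotic genes.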

How the data were processed

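Total RNA of 6 left atria had been hybridised to Rat Gene 1.0 ST arrays. The authors normalised the arrays by RMA in Partek, and the deposited values are log2 signals of 29214 probe sets. Of these, 15310 carried 1 gene symbol, 323 several and 13581 none. Probe sets above a log2 signal of 5 on at least 1 array (19907) entered limma 3.58.1 in R 4.3.3 (lmFit, eBayes; 2 residual and 2.76 prior degrees of freedom), with pair as a block. Each of 11237 genes was given by its brightest probe set, p-values were adjusted by Benjamini-Hochberg over all genes, and genes were called at the study's limits (p under 0.05 before adjustment, more than 1.3-fold). The procedure was tested on simulated data with independent noise and the same spread in both groups. That setting does not cover genes that move together or spread more in RAP, as the members did. The labels number the pairs, and by the study's methods a pair was implanted and paced at the same time; deviations from the group means correlated at 0.22, -0.24 and -0.32 within pairs 1 to 3. The block was kept as in the study's paired test.

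The members and gene lists were chosen with earlier results of these data known. All members are named, and of each other cell cycle list the genes that passed, while marker genes that passed are given as counts. Alternatives covered the block, the test, variance moderation, scaling, filter, probe sets and left-out arrays. RMA compresses low signals, and 3 pairs limit the precision. Figures used matplotlib 3.10.9.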

Additional observations from a re-analysis of the deposited data

How the results depend on the processing

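The count of members that rose was 0 and became 1 (Ccnd2) with no replicate block; the block for pair changed no other call among the members. When replicates or single arrays were left out, the count of members that rose ranged from 0 to 7 and of those that fell from 0 to 9. The mean distance of the mitotic genes from the controls in RAP 2 was -1.17, and -1.08 with arrays centred on their medians, an alternative added after seeing the data. Of single members, 3 values turned to the other side of 0 with a call: Nusap1, between -0.69 (without replicate 1) and 0.41 as pairs were left out and -0.66 without RAP replicate 1 and no block, and Mcm6, between -0.48 and 0.60 (without replicate 2). With all 6 arrays the changes of both genes were near 0, so no clear change was reversed. In the fits that turned, the fewer samples leave out an atrium at the end of the range. Of 661 values of single members under the alternatives, 627 kept their side of the thresholds and 31 passed them. With 3 pairs, a change of a mitotic gene within its interval, a median of 1.22 log2 units to each side, was not detectable, and signals near the filter level limit the distances in RAP 2.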

Other observations

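The order of atria seen in the members was searched over the whole array. With RAP 1 more than 0.5 log2 units above the highest control and RAP 2 more than 0.5 below the lowest control, there were 54 of 11237 genes, a limit chosen after the values were seen. Of these, 23 were members (21 mitotic genes, E2f1 and Rrm2), 22 were other genes of the cell cycle lists and 0 were cell type markers. At 54 of 11237 genes in all, the marker lists would hold few or none, so that the 0 carries no weight. The opposite order, with RAP 2 above and RAP 1 below, was met by 0 genes.

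The 9 remaining genes were in none of the lists. Mastl, the Greatwall kinase of mitotic entry, was 1.33 above the control mean in RAP 1 and -1.18 from it in RAP 2 (log2). Plk4, the kinase of centriole duplication, differed by 0.64 and -1.22, Cenpw of the kinetochore by 0.88 and -0.98, and Spag5 of the spindle by 0.97 and -0.93. Stmn1, which destabilises microtubules, differed by 0.76 and -0.98. Mms22l, a replication fork repair factor, differed by 0.76 and -1.29. Fam111a differed by 1.13 and -0.89 and Tcf19 by 0.66 and -0.66. Ltbp2, an extracellular matrix protein, was the gene without a known place in the cycle, at 0.86 and -0.64.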
